A study of Mus musculus with 36 samples.

Results

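The 10 cell cycle gate genes described here are *Wee1*, *Ccnd1*, *Ccne2*, *Ccng1*, *Ccng2*, *Cdkn1a*, *Cdkn1b*, *Myc*, *Mdm2* and *Gadd45a*. They were taken by gene name from the deposited table of 54532 genes, and all 10 were among the 17994 genes with at least 100 counts over the 36 liver libraries. The livers came from male mice of 2 to 3 months on regular chow and a cycle of 12 h light and 12 h dark. The study compared 18 controls (THRBWT), which carry 1 disrupted copy of *Thrb*, the gene of thyroid hormone receptor beta (THRB+/-), with 18 homozygous knockouts (THRBKO, THRB-/-). Livers were collected every 4 h from ZT2 to ZT22, where ZT (zeitgeber time) counts the hours since the light came on, from 3 mice of each genotype per time, lettered a, b and c. The allele (Thrbtm1Df) is meant to remove both receptor isoforms in every tissue, so a difference between genotypes need not arise in the liver, and no mouse with 2 intact copies was included. Both genotypes were of the C57Bl/6NCrl background.

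A cell divides only after it has passed a series of gates. D-type and E-type cyclins drive it from G1 into S phase, the inhibitors p21 (*Cdkn1a*) and p27 (*Cdkn1b*) hold their kinases back, and the kinase WEE1 blocks entry into mitosis. The transcription factor MYC promotes growth and G1 progression, whereas p53 switches on *Cdkn1a*, *Ccng1*, *Gadd45a* and its own antagonist *Mdm2* after damage. The adult liver is almost fully quiescent, yet the circadian clock reaches several of these genes, *Wee1* being the textbook case of a clock-driven gate on mitosis.

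The sum of counts in a library was 29063273 to 39913574 in THRBWT and 31008555 to 42530551 in THRBKO mice. Values below are CPM, in which the counts of each library are scaled to 1 common total after TMM correction for library composition. Sums over marker genes are the exception, since they were scaled to the library total without that correction (TMM factors 0.941 to 1.065). *Thrb* itself was counted in every library, from 24.3 to 38.5 CPM in THRBWT and from 26.2 to 37.7 CPM in THRBKO livers, so a sum over the whole gene does not tell the genotypes apart and could not check the labels. The summed level of 6 hepatocyte markers (*Alb*, *Ttr*, *Apoa1*, *Tat*, *Cps1* and *Hnf4a*) was 62947 to 85792 CPM in THRBWT and 68075 to 95765 CPM in THRBKO livers. Markers of lymphocytes summed to at most 6.4 CPM in any library and those of neutrophils to at most 1.9 CPM. In whole liver, fewer cells that express a gene and less RNA per cell cannot be told apart.

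Over 24 h, *Wee1*, *Cdkn1a*, *Ccng2*, *Ccne2* and *Gadd45a* rose and fell in both genotypes, *Cdkn1b* did so past the threshold in THRBWT livers, and *Ccnd1*, *Ccng1*, *Myc* and *Mdm2* passed in neither. A 24 h sine curve was fitted per genotype and tested by quasi-likelihood in edgeR, and p-values were adjusted by Benjamini-Hochberg over all tested genes and held against a threshold of 0.05. In THRBWT livers 6 of 10 members passed, where 35.1% of all tested genes did, and in THRBKO livers 5 of 10, where 31.5% did. The 5 that passed in both stand beside 24.5% of all tested genes (4411 of 17994). All members but *Ccne2* averaged at least 5 CPM. Of the 9470 tested genes with such a mean, 49.5% passed in THRBWT livers and 44.6% in THRBKO livers. In both genotypes 3523 of these 9470 passed, a larger share than among all tested genes. The median amplitude of the 10 members was 0.50 on the log2 scale in THRBWT and 0.49 in THRBKO livers, against medians of 0.21 and 0.20 over all tested genes. No difference between genotypes passed the threshold in any of the 10 genes, in level or in rhythm.

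**Figure D1:**
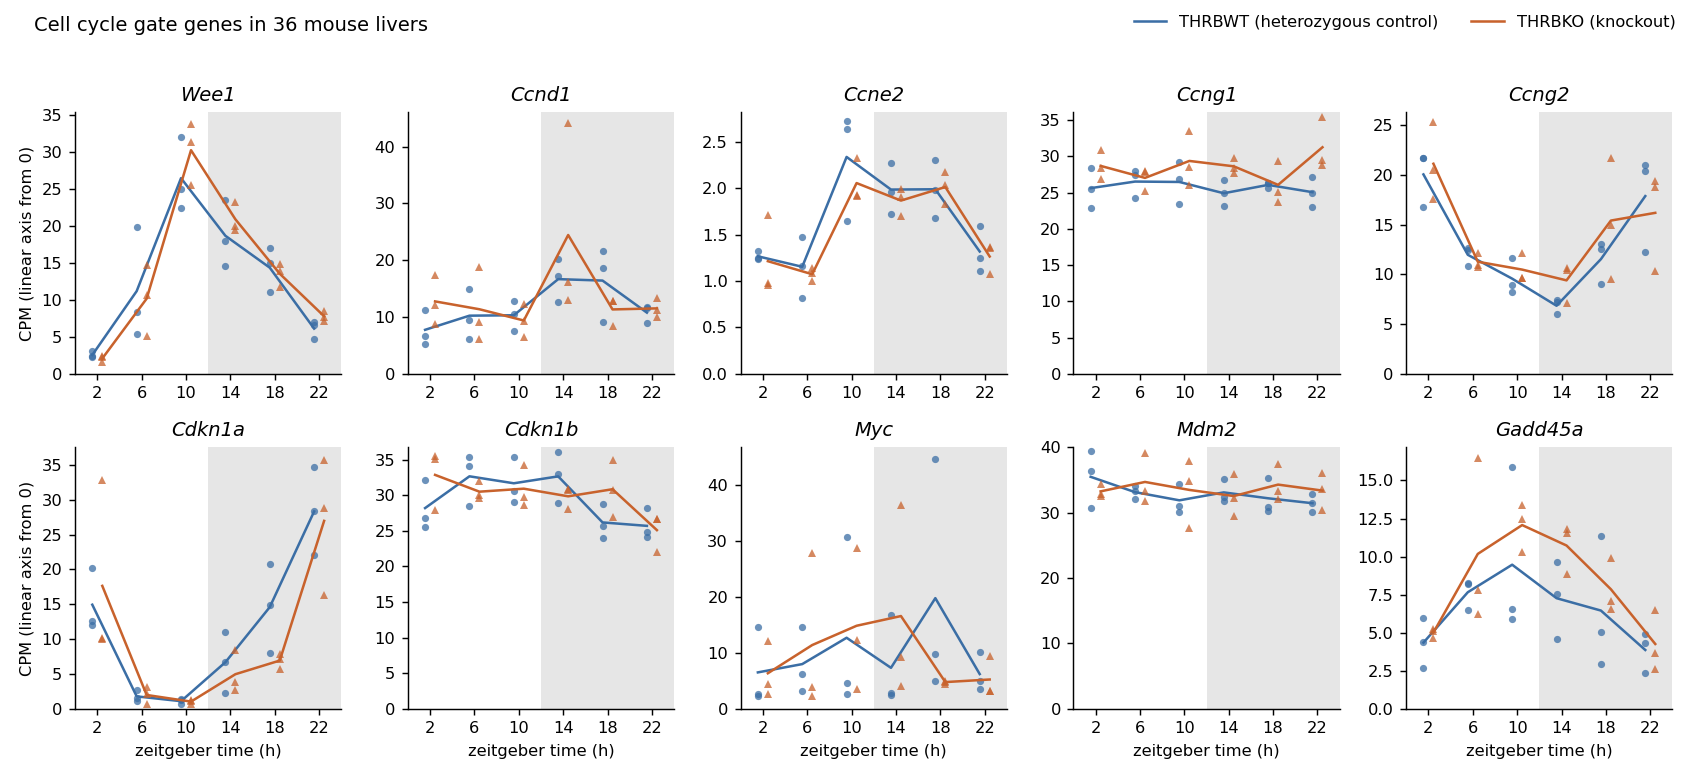
CPM of each of the 10 genes against zeitgeber time, with circles for THRBWT and triangles for THRBKO livers (1 point per library), lines through the means of 3 mice, linear axes that start at 0 and grey for the dark phase. *Wee1* peaks at ZT10 and *Cdkn1a* at ZT22 in both genotypes, while *Ccng1* and *Mdm2* stay nearly flat and *Myc* scatters between mice of 1 group.

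*Wee1*, the kinase that puts an inhibitory phosphate on CDK1, lies on chromosome 7 of GRCm38 from 110122046 to 110143286. At ZT2 its 3 THRBWT livers had 2.20, 3.02 and 2.41 CPM, and its 3 THRBKO livers 1.54, 2.25 and 2.39 CPM. At ZT10 they had 22.4, 25.1 and 32.0 CPM in THRBWT and 33.8, 31.4 and 25.6 CPM in THRBKO mice. Every liver at ZT10 thus lay far above every liver at ZT2, and the genotypes overlapped at both times. The mean rose 10.4-fold from ZT2 to ZT10 in THRBWT mice (2.54 ± 0.43 to 26.5 ± 4.96 CPM, SD, n = 3) and 14.7-fold in THRBKO mice (2.06 ± 0.46 to 30.3 ± 4.23 CPM, SD, n = 3). At ZT6, while the level was climbing, mice of 1 group differed most, from 5.41 to 19.8 CPM in THRBWT and from 5.13 to 14.7 CPM in THRBKO livers. Both genotypes had the order ZT10, ZT14, ZT18, ZT6, ZT22, ZT2 from high to low. Only ZT22 and ZT2 were separate neighbours in that order in both genotypes, and in THRBKO livers ZT10 and ZT14, and ZT14 and ZT18, were so too. The fitted peak was at ZT 12.8 ± 0.55 h (SE) in THRBWT and ZT 12.998 ± 0.51 h in THRBKO livers, with amplitudes of 1.46 ± 0.21 and 1.57 ± 0.21 log2 units. The adjusted p of the rhythm was 1.02e-05 and 5.3e-06 (edgeR).

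*Cdkn1a*, whose product p21 inhibits the cyclin-dependent kinases of G1 and S phase, had the widest daily range of the 10. It lies on chromosome 17 from 29090976 to 29100727. At ZT10 the THRBWT livers had 1.26, 0.65 and 1.37 CPM and the THRBKO livers 0.71, 1.16 and 1.22 CPM. At ZT22 they had 34.7, 22.0 and 28.3 CPM in THRBWT and 16.3, 28.9 and 35.8 CPM in THRBKO mice. No liver at ZT22 came near those at ZT10, and the genotypes overlapped at both times. From the lowest to the highest time the mean rose 25.9-fold in THRBWT (1.09 ± 0.39 to 28.3 ± 6.32 CPM, SD, n = 3) and 26.1-fold in THRBKO livers (1.03 ± 0.28 to 27.0 ± 9.90 CPM, SD, n = 3). The lowest single value rested on 21 counts. At ZT2 one THRBKO liver had 32.9 CPM and the other livers 10.1 and 9.95 CPM, next to 12.0, 12.5 and 20.2 CPM in THRBWT livers. The fitted peak was at ZT 21.2 ± 0.45 h (SE) in THRBWT and ZT 21.9 ± 0.49 h in THRBKO mice, with amplitudes of 2.33 ± 0.27 and 2.16 ± 0.27 log2 units and adjusted p of 9.88e-07 and 1.38e-06 (edgeR). Over the 12 group means *Cdkn1a* and *Gadd45a* ran opposite to each other (Pearson's r = -0.88, a description over means of the same libraries).

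The other inhibitor of this family, *Cdkn1b* (p27, chromosome 6 from 134920401 to 134925513), moved little. Its group means lay between 25.1 and 32.9 CPM. At its lowest time, ZT22, THRBWT livers had 28.2, 24.1 and 24.8 CPM and THRBKO livers 22.0, 26.7 and 26.6 CPM. At ZT6 the THRBWT livers had 28.5, 34.2 and 35.3 CPM, all above those at ZT22. The rhythm passed in THRBWT mice (amplitude 0.19 ± 0.05 log2 units, SE, adjusted p = 0.015, edgeR) but not in THRBKO mice (0.09 ± 0.05, adjusted p = 0.504). The test of the difference itself gave an unadjusted p of 0.287 and an adjusted p of 1.0 (edgeR), and the difference in amplitude had a 95% interval from -0.26 to 0.05 log2 units, so the genotypes were not shown to differ. Without the mice of letter b or of letter c the THRBWT rhythm no longer passed either (adjusted p = 0.082 and 0.350, over a range of 0.011 to 0.350 in all alternatives, edgeR or DESeq2).

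Among the cyclins, *Ccng2* and *Ccne2* were rhythmic in both genotypes. *Ccng2* (chromosome 5 from 93267257 to 93276231) encodes an atypical cyclin that is induced in resting cells and repressed by growth factor signalling. It was highest around lights on. At ZT2 the THRBWT livers had 16.7, 21.7 and 21.7 CPM and the THRBKO livers 20.5, 17.6 and 25.3 CPM. At ZT14, its lowest time, they had 7.39, 5.96 and 7.17 CPM in THRBWT and 10.5, 10.6 and 7.10 CPM in THRBKO mice. The 3 livers of ZT2 lay above the 3 of ZT14 in each genotype, a 2.93-fold difference of means in THRBWT and a 2.25-fold one in THRBKO mice. The fitted peak was at ZT 0.73 ± 0.60 h (SE) in THRBWT and ZT 23.8 ± 0.84 h in THRBKO livers, with amplitudes of 0.71 ± 0.11 and 0.51 ± 0.11 log2 units and adjusted p of 9.82e-06 and 0.00065 (edgeR). The peak times differed by -0.92 h (95% interval -3.02 to 1.18 h) and the amplitudes by -0.20 log2 units (95% interval -0.52 to 0.12).

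*Ccne2*, a cyclin E that activates CDK2 at the entry into S phase, was the least abundant member, at 0.82 to 2.72 CPM over all 36 livers, or 28 to 106 counts. Its highest means were at ZT10, with 2.72, 1.65 and 2.64 CPM in THRBWT and 2.33, 1.93 and 1.91 CPM in THRBKO livers. Its lowest were at ZT6, 4 h earlier, with 1.16, 0.82 and 1.47 CPM in THRBWT and 1.14, 0.99 and 1.09 CPM in THRBKO mice. The groups did not overlap between these times, and the means of ZT10, ZT18 and ZT14 were the 3 highest in both genotypes. The fitted peak was at ZT 14.005 ± 0.80 h (SE) and ZT 14.4 ± 0.79 h, with amplitudes of 0.47 ± 0.10 and 0.48 ± 0.10 log2 units and adjusted p of 0.0015 and 0.0024 (edgeR). Without the mice of letter a or of letter c the THRBKO rhythm no longer passed (adjusted p = 0.089 and 0.065, over a range of 0.00052 to 0.089 in all alternatives, edgeR or DESeq2). The gene lies on chromosome 4 from 11191351 to 11204779, and 609 of its exon bases are shared with *Ints8* on the opposite strand. The libraries do not keep strand, so reads there cannot be told apart. *Ints8* had 14.5 ± 2.15 CPM (SD, n = 18) in THRBWT livers and did not pass as rhythmic (adjusted p = 0.120 and 0.304 in THRBWT and THRBKO, edgeR).

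*Ccnd1* (chromosome 7 from 144929931 to 144939925) encodes cyclin D1, the partner of CDK4 and CDK6 that hepatocytes raise on leaving quiescence. It was detected in every liver at 5.22 to 21.6 CPM in THRBWT and at 6.13 to 44.1 CPM in THRBKO mice. The highest value belonged to a single THRBKO liver at ZT14, mouse c, where the other mice had 13.1 and 16.1 CPM. With this liver the ZT14 mean of THRBKO mice was 24.4 ± 17.1 CPM (SD, n = 3), and without it 14.6 CPM, against 16.7 ± 3.83 CPM (SD, n = 3) in THRBWT mice. No other THRBKO liver exceeded 18.8 CPM. The rhythm of *Ccnd1* did not pass in THRBWT (adjusted p = 0.0733, edgeR) or in THRBKO mice (adjusted p = 0.286). Without the mice of letter c it passed in THRBWT livers (adjusted p = 0.0348, edgeR). *Ccnd1* shares 1100 exon bases with *LTO1* on the opposite strand, a gene of 15.8 CPM on average whose own rhythm passed in both genotypes (peaks at ZT 14.9 and ZT 12.2, amplitudes 0.20 and 0.18 log2 units).

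The members under the textbook control of p53 did not share a daily pattern. *Cdkn1a* had the widest daily range, *Gadd45a* was rhythmic with another peak time, and *Ccng1* and *Mdm2* were flat. The promoters of *Cdkn1a* and *Ccng1*, a rhythmic and a flat gene that are both textbook targets of p53, are given as RefSeq lists them for GRCm38.p6, from 250 bases before to 50 bases after a transcript start, on the strand of the gene, with a p53 response element in capitals. The window of *Cdkn1a* is that of its upstream listed start, chr17:29090729-29091028 on the plus strand. That of *Ccng1* is chr11:40755237-40755536 on the minus strand.

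*Cdkn1a*: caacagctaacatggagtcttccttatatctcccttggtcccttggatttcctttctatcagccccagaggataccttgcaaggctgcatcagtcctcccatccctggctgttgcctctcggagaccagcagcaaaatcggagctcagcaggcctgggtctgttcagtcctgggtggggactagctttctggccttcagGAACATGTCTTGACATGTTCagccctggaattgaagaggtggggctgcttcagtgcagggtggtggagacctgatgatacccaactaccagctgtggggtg
*Ccng1*: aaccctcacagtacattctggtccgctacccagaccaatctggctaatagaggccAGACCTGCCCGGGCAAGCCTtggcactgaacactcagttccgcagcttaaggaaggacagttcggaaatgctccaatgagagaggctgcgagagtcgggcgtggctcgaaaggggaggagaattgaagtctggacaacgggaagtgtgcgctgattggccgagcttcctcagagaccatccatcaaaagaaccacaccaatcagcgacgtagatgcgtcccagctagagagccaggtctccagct

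The p53 response element was searched as its 20-base consensus without a spacer and with at most 1 mismatch. The consensus is its own reverse complement, so the search covers both strands. It was found 51 to 32 bases before the upstream start of *Cdkn1a* and 195 to 176 bases before the start of *Ccng1*, with 1 mismatch each. Of the 27025 genes with a window (the one listed first for each), 25, or 0.0925%, held such a match. It was not among the letters of the windows of *Ccng2*, *Cdkn1b*, *Mdm2* and *Gadd45a*. Nor was it in the window of a further start of *Cdkn1a* downstream, chr17:29093519-29093818. An element outside these windows, such as within the gene, or one with a spacer would have been missed. RefSeq windows were matched for these 6 members and not for *Wee1*, *Ccnd1*, *Ccne2* and *Myc*. On both strands of the 7 windows, the E-box CACGTG (7.24% of all windows), the D-box TTATGTAA or TTACGTAA (1.06%), the nuclear receptor half-site AGGTCA (16.0%), the cyclic AMP element TGACGTCA (1.88%) and the TATA box TATAAA (14.2%) had no exact match. The FOXO site GTAAACA (3.55%) occurred once, 153 bases before the start of *Mdm2*. A match is only a run of letters, and the search was chosen after the windows had been seen.

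*Ccng1* (chromosome 11 from 40748552 to 40755311), a cyclin that p53 induces and that recruits a phosphatase to MDM2, varied little. It lay between 22.9 and 29.2 CPM in the 18 THRBWT livers (median 26.0) and between 23.7 and 35.5 CPM in the 18 THRBKO livers (median 28.4). Its time means in THRBWT mice differed at most 1.06-fold, and the sampling times overlapped throughout. In THRBKO mice the means differed at most 1.20-fold, and the livers at ZT22 lay above those at ZT6. The rhythm had an adjusted p of 0.856 in THRBWT and 0.880 in THRBKO livers (edgeR). *Mdm2* (chromosome 10 from 117688875 to 117710758) encodes the ubiquitin ligase that marks p53 for degradation. It also varied little, at 30.1 to 39.4 CPM in THRBWT and 27.7 to 39.1 CPM in THRBKO livers. All its sampling times overlapped in each genotype, and its rhythm had an adjusted p of 0.716 and 0.964 (edgeR).

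*Gadd45a*, a growth arrest and DNA damage gene on chromosome 6 from 67035096 to 67037457, peaked late in the light phase. At ZT10 the THRBWT livers had 5.91, 6.58 and 15.9 CPM and the THRBKO livers 13.4, 10.3 and 12.5 CPM. At ZT22 they had 4.32, 2.37 and 4.91 CPM in THRBWT and 2.60, 3.66 and 6.52 CPM in THRBKO mice. The 3 livers of ZT10 lay above the 3 of ZT22 in both genotypes, although 1 of the THRBWT livers carried much of the ZT10 mean. The fitted peak was at ZT 10.5 ± 1.08 h (SE) in THRBWT and ZT 11.2 ± 0.83 h in THRBKO livers, with amplitudes of 0.60 ± 0.17 and 0.79 ± 0.17 log2 units and adjusted p of 0.0152 and 0.0021 (edgeR). In THRBWT mice the call was lost without letter b (adjusted p = 0.133), without letter c (0.298) and with time as a factor in place of the sine curve (0.122), over a range of 0.0012 to 0.298 in all alternatives (edgeR or DESeq2). *Gadd45a* shares 337 exon bases with *E230016M11Rik* on the opposite strand, which had 1.95 CPM on average and peaked at ZT 4.80 and ZT 4.68.

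*Myc* (chromosome 15 from 61985391 to 61990374) differed between mice rather than between times. It ranged from 2.32 to 44.6 CPM in THRBWT livers (median 4.93) and from 2.32 to 36.4 CPM in THRBKO livers (median 4.69). At ZT18 the THRBWT livers had 44.6, 9.79 and 4.91 CPM, whereas the THRBKO livers had 4.86, 4.52 and 4.94 CPM. At ZT14 it was a THRBKO mouse that stood out, with 4.06, 36.4 and 9.25 CPM against 16.8, 2.77 and 2.40 CPM in THRBWT mice. In all, 5 livers exceeded 25 CPM, 2 THRBWT and 3 THRBKO, spread over 4 sampling times, while 21 of the 36 had under 5 CPM. Without the highest THRBWT liver the mean at ZT18 went from 19.8 to 7.35 CPM, and without the highest THRBKO liver that at ZT14 went from 16.6 to 6.65 CPM. The rhythm had an adjusted p of 0.558 in THRBWT and 0.186 in THRBKO livers (edgeR). The 8 Kupffer cell markers are genes of the resident macrophages of liver. In the 2 THRBWT livers with over 25 CPM of *Myc* they summed to 253 and 184 CPM (median of all THRBWT livers 240). In the 3 THRBKO livers they summed to 192, 297 and 356 CPM (median of all THRBKO livers 232). The hepatocyte markers summed to 68075 to 86801 CPM in these 5 livers. The 8 markers of pericentral hepatocytes summed to 7673 and 12231 CPM in the 2 THRBWT livers among them (median of all THRBWT livers 7623) and to 8974, 9159 and 8151 CPM in the 3 THRBKO livers (median of all THRBKO livers 6967), and so lay above the median in each. The 6 stellate cell markers summed to 316 and 319 CPM in those THRBWT livers (median 357) and to 332, 294 and 284 CPM in those THRBKO livers (median 336), below the median in each. The 5 cholangiocyte markers were also below the median in each, at 40.3 and 35.8 CPM in the THRBWT livers (median 43.0). In the THRBKO livers they summed to 38.28, 29.3 and 35.6 CPM (median 38.34). The sums of the other marker lists lay on both sides of the medians. *Cyp2e1*, the largest part of the pericentral sum (5339 CPM on average in THRBWT livers), was itself rhythmic in both genotypes. The medians cover all sampling times, while these 5 livers came from 4 of them. Against the other mice of its own group, each had the highest pericentral sum except the THRBKO liver at ZT6, which lay in between. The stellate sum was lowest in the THRBWT liver at ZT18 and the THRBKO liver at ZT6. It was highest in the THRBWT liver at ZT10 and in between in the THRBKO livers at ZT10 and ZT14. The part of these cells in the *Myc* values was not tested.

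**Figure D2:**
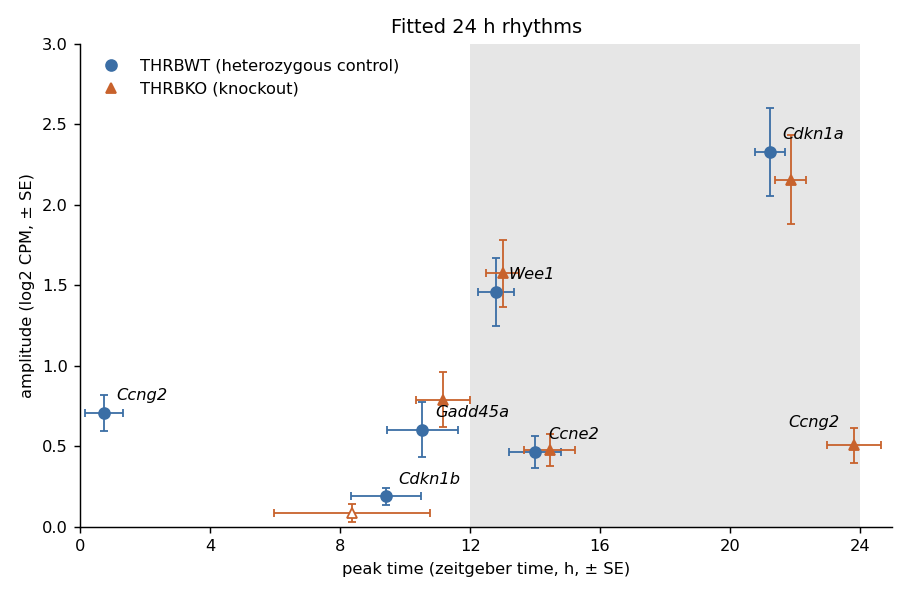
Fitted amplitude (log2 CPM) against fitted peak time (zeitgeber time, h) of the 6 genes with a rhythm past the threshold in THRBWT livers, with circles for THRBWT, triangles for THRBKO, standard errors as bars, an open symbol where the threshold was missed and grey for the dark phase. In THRBWT livers *Cdkn1b*, *Gadd45a*, *Wee1* and *Ccne2* peak between ZT 9.40 and ZT 14.005, *Cdkn1a* at ZT 21.2 and *Ccng2* at ZT 0.73.

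In THRBWT livers the fitted peaks were at ZT 9.40 ± 1.08 h (SE) for *Cdkn1b*, followed by *Gadd45a* at ZT 10.5, *Wee1* at ZT 12.8, *Ccne2* at ZT 14.005, *Cdkn1a* at ZT 21.2 and *Ccng2* at ZT 0.73. In THRBKO livers the 5 genes from *Gadd45a* to *Ccng2* came at ZT 11.2, 12.998, 14.4, 21.9 and 23.8. The differences in peak time were 0.62 h (95% interval -2.16 to 3.40 h) for *Gadd45a*, 0.20 h (-1.34 to 1.73 h) for *Wee1*, 0.44 h (-1.85 to 2.73 h) for *Ccne2* and 0.63 h (-0.72 to 1.98 h) for *Cdkn1a*. These intervals leave room for shifts of 1.73 h or more. The test of a rhythm difference between genotypes called 0 of 10 members (0.00% of all tested genes), with 0 members and 553 of all tested genes at an unadjusted p under 0.05 (edgeR).

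Sampling time and the differences between mice divided the variance of log2 CPM very differently from gene to gene. Time accounted for 91.1% of the variance of *Wee1*, 87.3% of that of *Cdkn1a*, 75.6% of that of *Ccne2* and 69.9% of that of *Ccng2*, against a median of 30.3% over all tested genes. Over tested genes with a mean of at least 5 CPM the median was 41.7%. For *Myc* time accounted for 6.69% and mice within a group for 82.7%, and for *Mdm2* the shares were 6.85% and 83.5%. The 2 genes with nearly the same shares differed in absolute spread, since the SD within groups was 1.38 log2 units for *Myc*, above 99.6% of all tested genes, and 0.13 for *Mdm2*, above 17.3%. *Ccng1* was the only member with a large share for genotype, at 25.4% against a median of 1.48%. *Gadd45a* came next with 6.93%.

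**Figure D3:**
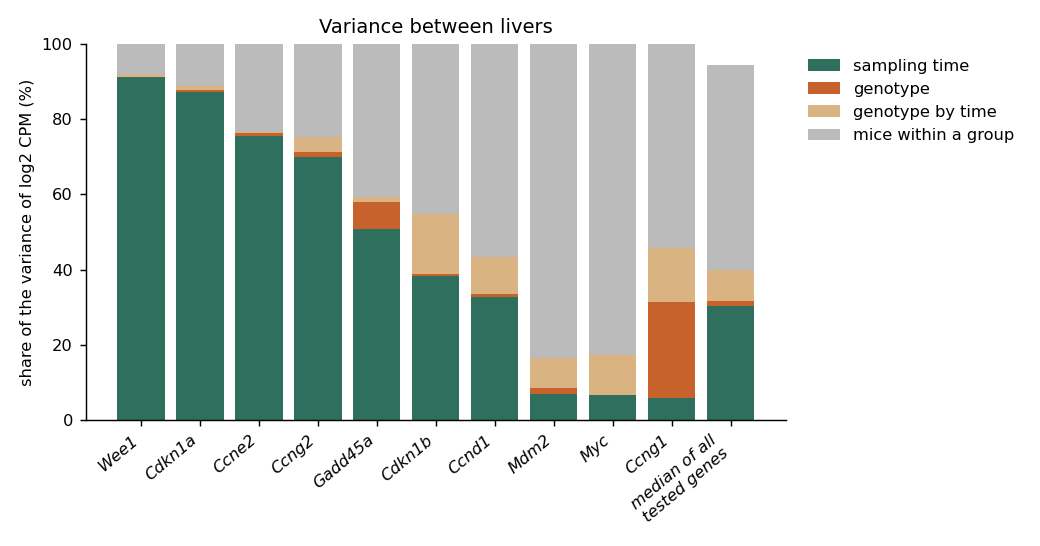
Share (%) of the variance of log2 CPM over 36 livers that goes with sampling time, genotype, their interaction and mice within a group, as stacked bars per gene, with the median of each share over all tested genes at the right (these medians need not sum to 100). Time takes 91.1% for *Wee1* and 6.69% for *Myc*.

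Whether loss of THRB altered the level of these genes was tested with sampling time as a factor. None of the 10 passed, where 0.950% of all tested genes did (171, of which 91 were higher and 80 lower in THRBKO livers). At an unadjusted p under 0.05 there were 2 of 10 members, *Ccng1* and *Gadd45a*, where 12.1% of all tested genes did so, and DESeq2 likewise called 0 of 10 after adjustment. The mean of 7 of 10 members was higher in THRBKO livers, with a median log2 fold change of 0.04 against -0.00 over all tested genes.

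*Ccng1* had 25.8 ± 1.92 CPM (SD, n = 18) in THRBWT and 28.5 ± 2.85 CPM (SD, n = 18) in THRBKO livers. Its mean was higher in THRBKO mice at 5 sampling times and level at ZT18, where both groups had 26.1 CPM. The log2 fold change of 0.14 (SE 0.043, or 1.10-fold) had an unadjusted p of 0.0023 and an adjusted p of 0.114 (edgeR), and the 95% interval of the difference in mean log2 level was 0.05 to 0.23. Over the alternatives the fold change stayed between 0.12 and 0.16 and the adjusted p between 0.065 and 0.432. *Gadd45a* had 6.51 ± 3.35 CPM in THRBWT and 8.35 ± 3.75 CPM in THRBKO livers (SD, n = 18 each) and a higher mean in THRBKO mice at 6 of 6 times. Its log2 fold change of 0.33 (SE 0.160, or 1.26-fold) had an adjusted p of 0.403 (edgeR), and the groups overlapped at every sampling time.

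The other 8 members had log2 fold changes from -0.23 (*Cdkn1a*, SE 0.217) to 0.14 (*Ccnd1*, SE 0.174), with adjusted p from 0.638 to 0.989 (edgeR). For *Cdkn1a* the value went to -0.47 when letter b was left out and to -0.10 when letter c was. The precision of these values differed widely. For *Mdm2* the 95% interval of the difference in mean log2 level was -0.05 to 0.11 and for *Cdkn1b* -0.08 to 0.14, while for *Cdkn1a* it was -0.80 to 0.32 and for *Myc* -0.85 to 0.90. Differences of *Myc* inside that interval were not excluded with these mice.

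**Figure D4:**
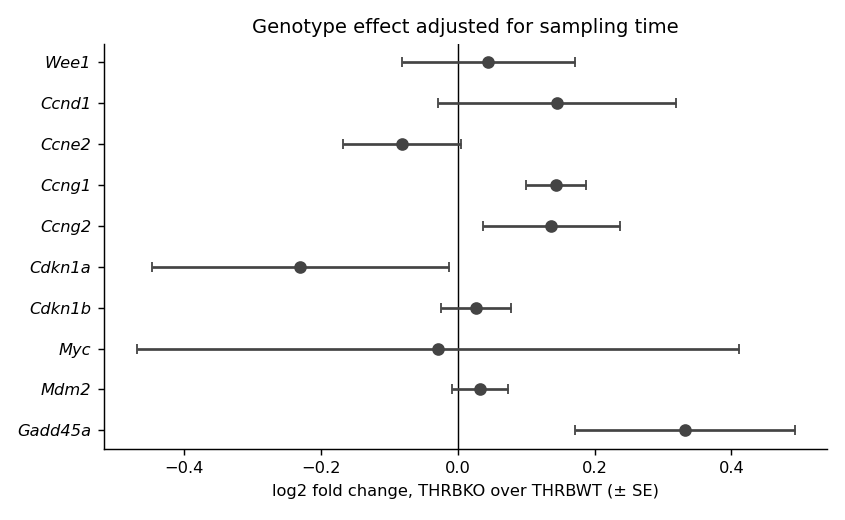
Log2 fold change (THRBKO over THRBWT) of the 10 genes, adjusted for sampling time, as points with standard errors from edgeR over 36 livers. *Ccng1* (0.14) has a narrow bar to the right of 0, *Gadd45a* (0.33) a wider one, and *Myc* (-0.03) the widest.

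Sampling times taken one by one gave no call for any member, where 0.0278% of all tested genes passed at ZT2, 0.0111% at ZT6, 0.0167% at ZT10, 0.0167% at ZT14, 0.0222% at ZT18 and 0.0222% at ZT22. The lowest adjusted p of the 60 comparisons was 0.746 (edgeR). In 4 of these 60 the 3 THRBKO livers did not overlap with the 3 THRBWT livers, where 9.96% of all gene-by-time comparisons were of this kind. *Ccng1* was one at ZT14 and ZT22. At ZT22 its THRBKO livers had 28.7, 35.5 and 29.6 CPM and its THRBWT livers 23.0, 27.2 and 24.9 CPM, with an unadjusted p of 0.0050 (edgeR). *Wee1* at ZT22 was 7.73, 7.15 and 8.46 CPM in THRBKO and 7.04, 6.55 and 4.74 CPM in THRBWT mice. *Cdkn1a* at ZT18 was the only gene with lower THRBKO livers, at 5.70, 7.17 and 7.91 CPM against 8.03, 20.8 and 14.9 CPM. Its log2 fold change there was -1.08 (SE 0.503, unadjusted p = 0.040, adjusted p = 0.915, edgeR). The interaction of genotype and time called 0 of 10 members (0.00% of all tested genes), with 0 members and 484 of all tested genes at an unadjusted p under 0.05.

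Per kilobase of annotated exon, *Ccng1*, *Cdkn1b* and *Mdm2* were the most abundant members in THRBWT livers, with 7.34 ± 0.55, 6.48 ± 0.88 and 6.47 ± 0.49 CPM per kb (SD, n = 18). *Wee1*, *Myc*, *Gadd45a* and *Cdkn1a* followed with daily means of 3.87, 3.71, 3.69 and 3.16 CPM per kb, then *Ccnd1* with 2.55, *Ccng2* with 2.38 and *Ccne2* with 0.48 ± 0.16. The SDs of *Wee1* to *Ccng2*, from 0.96 to 4.16 CPM per kb, exceeded the gaps between these neighbours.

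Relatives of the members, from lists written with earlier results of these data in view, held both rhythmic genes and genes that did not pass, and *Aurka* and *Foxo1* were the only ones called for genotype. Of 23 G1 and S phase genes, 10 were rhythmic in THRBWT and 9 in THRBKO livers, 7 of them in both. This count and those of the lists below stand beside 35.1% and 31.5% of all tested genes in THRBWT and THRBKO livers. Among tested genes with a mean of at least 5 CPM the shares were 49.5% and 44.6%. *Ccne1*, the other cyclin E, peaked at ZT 11.3 and ZT 11.8 with amplitudes of 1.16 and 1.499 log2 units at only 1.67 and 2.00 CPM on average. *Ccnd3*, *Tfdp2* and *Tfdp1*, a D cyclin and 2 partners of E2F, had amplitudes from 0.20 to 0.38. The 5 other CDK inhibitors held 0 rhythmic genes in THRBWT and 1, *Cdkn2b*, in THRBKO livers. None of the genes in both lists passed the test of genotype.

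Of 12 tested G2/M kinases and phosphatases, 3 were rhythmic in each genotype. They were *Aurka*, *Chek1* and *Atm* in THRBWT livers, of which *Aurka* and *Chek1* also passed in THRBKO livers, with THRBWT peaks at ZT 21.7 and ZT 17.1. *Aurka*, a kinase of the mitotic spindle poles, was the only one that fell with genotype (3.85 CPM in THRBWT and 3.11 CPM in THRBKO livers, log2 fold change -0.30, adjusted p = 0.0243, edgeR). *Pkmyt1*, the sister kinase of WEE1, was not rhythmic (adjusted p = 0.901 and 0.327). Of 21 proliferation markers, 10 and 8 were rhythmic, 7 in both. The replication helicase genes *Mcm4*, *Mcm2* and *Mcm5* peaked between ZT 20.6 and ZT 20.9 in THRBWT livers, with amplitudes from 0.68 to 0.93, and *Rrm2*, a subunit of ribonucleotide reductase, at ZT 14.9. *Mki67* and *Top2a* were at 1.22 and 0.98 CPM on average in THRBWT livers.

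Of 26 p53 pathway genes, 11 and 9 were rhythmic, 7 in both, and 0 passed the test of genotype. *Fas*, *Bbc3* and *Ddit4* passed in both genotypes with THRBWT peaks at ZT 20.4, ZT 0.68 and ZT 19.5, and *Plk3* passed with a THRBWT peak at ZT 11.9. *Sesn2* passed in THRBWT livers (amplitude 0.49) and not in THRBKO livers (0.15), a difference that had no call of its own. The other members of the Gadd45 family held no rhythmic gene in THRBWT livers and 1, *Gadd45g*, in THRBKO livers. In the Myc network 6 and 5 of 11 genes were rhythmic, 5 in both, among them *Mlx*, *Mxi1*, *Mxd1* and *Max*, the obligate partner of MYC, with amplitudes of at most 0.37.

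The 18 clock and clock output genes all passed in both genotypes, with a median amplitude of 1.46 in THRBWT and 1.54 in THRBKO livers, beside 1.46 and 1.57 for *Wee1*. Of 13 FOXO and fasting-responsive genes 11 and 7 were rhythmic, with *Pdk4* at ZT 22.4, *Foxo3* at ZT 10.7 and *Foxo1* at ZT 10.97 in THRBWT livers. The test of a rhythm difference between genotypes called 0 of these 13. *Foxo1*, of a family of factors known to raise *Ccng2*, was higher in THRBKO livers (log2 fold change 0.19, adjusted p = 0.0215, edgeR). *Ccng2* itself did not pass that test (adjusted p = 0.638, edgeR). Of 9 tested glucocorticoid-responsive genes 4 and 5 were rhythmic, with *Fkbp5* at ZT 14.3 and *Per1* at ZT 12.6.

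The genes whose 12 group means of log2 CPM were most like those of each member were taken from all other genes with at least 5 CPM, with no test. For *Wee1* they were *Usp2*, *Per3* and *Per1* (Pearson's r = 0.993, 0.986 and 0.976), of which *Per3* and *Per1* are clock genes. For *Cdkn1a* they included *Paxx* and *Dnal4* (r = 0.978 and 0.976). They were *Zfp101*, *Pter* and *Rnf125* for *Ccng2* (0.955 to 0.948), *Slc9a3r1*, *Klc4* and *Trim41* for *Ccne2* (0.945 to 0.940) and *Tmem59*, *Bbox1* and *Slc27a2* for *Gadd45a* (0.982 to 0.949). The genes closest to *Ccnd1* were *Adgra3*, *Exoc8* and *Ccdc86* (0.965 to 0.941) and those closest to *Cdkn1b* *Hinfp*, *Braf* and *Apopt1* (0.930 to 0.849). The flat or scattered members had looser likenesses, with *Dld*, *Cyp2b9* and *Cyp4a10* for *Ccng1* (0.853 to 0.816), *Daam1*, *Pitpnm1* and *Tmem120a* for *Myc* (0.837 to 0.823) and *1810017P11Rik*, *Traf7* and *Fam92a* for *Mdm2* (0.810 to 0.784). All points of a pair come from the same libraries.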

How the data were processed

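Livers of 36 mice were sequenced as poly-A selected, non-directional, paired-end libraries. Per the labels and the study's methods, the authors mapped cleaned reads to GRCm38 with HISAT2, counted reads per gene with featureCounts and deposited whole-number counts without normalization or filter. Versions, annotation release and treatment of multiply mapped reads are not given in the sources used here. The coordinates of all 10 members equal those of GENCODE vM21. An alignment of their transcripts with all others (BLAST 2.17.0, at least 95% identity over 200 bases) found only the overlapping genes on the opposite strand.

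Groups came from the labels. Genes whose deposited counts summed to 100 or more over the libraries were tested with edgeR 4.0.16 (TMM, glmQLFit and glmQLFTest, R 4.3.3), with Benjamini-Hochberg adjustment over 17994 genes and a threshold of 0.05. The level was tested with genotype and time as factors, the contrast at each time in a model of 12 groups, and rhythms with a mean, sine and cosine of 24 h per genotype. Peak times, amplitudes and 95% intervals came from the same curve on log2 CPM (prior count 2, delta method, spread pooled over genotypes, 30 residual degrees of freedom). The tests were tested on simulated data. Mice of 1 group differed beyond sampling noise (chi-square per gene 29.9 to 124). The alternatives were DESeq2 1.42.0, its size factors, other filters, pairs by letter, time as a factor, times pooled and leaving out each letter.

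The members, all of which are named, the lists and the tests were chosen with earlier results of these data known. From each list up to 4 genes with the smallest p are named, and for each member the 3 genes of at least 5 CPM with the highest r over group means. One gene that this rule names is not reported here. *Pkmyt1*, *Mki67*, *Top2a*, *Plk3*, *Cdkn2b* and *Gadd45g*, the p53 motif and the values without a single liver were chosen after seeing the data.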

Additional observations from a re-analysis of the deposited data

How the results depend on the processing

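No member passed the test of genotype under any of the 9 alternatives, though the count over all genes moved, from 171 to 306 with DESeq2, 65 with times pooled and 42 to 85 without the mice of 1 letter. Rhythmic genes fell to between 3827 and 4522 in THRBWT and between 3130 and 4091 in THRBKO livers without a letter, where fewer mice enter the fit. Per sampling time, DESeq2 called 7 genes at ZT6, 5 at ZT10, 7 at ZT14, 8 at ZT18 and 19 at ZT22, and without a low-count filter 6, 6 and 15 were called at ZT6, ZT14 and ZT22. Without a letter the counts were 1 to 3 at ZT2, ZT10, ZT14 and ZT18, 1 to 2 at ZT6 and 1 to 4 at ZT22. Without the mice of 1 letter the log2 fold change ran from -0.032 to 0.11 for *Wee1*, -0.13 to 0.27 for *Ccnd1*, -0.017 to 0.063 for *Cdkn1b* and -0.34 to 0.18 for *Myc*, and so changed sign, in no case past the threshold. It ran from -0.47 to -0.10 for *Cdkn1a*, -0.16 to -0.022 for *Ccne2* and 0.010 to 0.067 for *Mdm2*. *Myc* had 0.05 without letter a and 0.18 without letter c. The cause of these moves was not tested.

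Both genotypes carry letters a to c at each time. Of 18 same-letter pairs 9 had deviations from their group means that correlated over 0.1 (range -0.04 to 0.22, median 0.10). Pairs of other letters had a median of -0.06. Because deviations within a group cancel out, positive values for same letters make those of other letters negative. The medians are therefore not independent. The labels do not say what a letter marks, though some same-letter mice carry neighbouring animal numbers. Correlations were higher for same-letter pairs, and whether the letters mark pairs was not settled. The main tests did not pair them. With the letter as a replicate block 387 genes passed the test of genotype (171 without it), and 8, 8 and 9 passed at ZT6, ZT18 and ZT22. In that fit 1 gene differed in rhythm, and no member was called for genotype. The adjusted p of *Ccng1* was 0.065 with the block and 0.114 without it (edgeR).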

Other observations

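Around the 12 group means of log2 CPM, over the 36 livers, the genes closest to *Myc* were *Socs3*, a feedback inhibitor of cytokine signalling (Pearson's r = 0.944, Spearman's rho = 0.909), *Foxq1*, a forkhead transcription factor (0.898 and 0.901), and *Gadd45g*, a stress-responsive relative of *Gadd45a* (0.880 and 0.848). Without the 2 livers farthest from the median of *Myc* the values of r were 0.935, 0.877 and 0.869. These genes were chosen for their likeness after the values had been seen, all points share their libraries, and no test was made. In the THRBWT liver with 44.6 CPM of *Myc*, *Socs3* had 22.8, *Foxq1* 30.8 and *Gadd45g* 71.0 CPM, and in the THRBKO liver with 36.4 CPM they had 22.1, 32.1 and 52.0 CPM. The liver with the least *Myc*, a THRBWT mouse at ZT2 with 2.32 CPM, had 7.16, 14.2 and 43.3 CPM. Over all livers *Socs3* ranged from 4.16 to 44.0, *Foxq1* from 4.00 to 70.4 and *Gadd45g* from 5.35 to 162 CPM. The liver with 44.1 CPM of *Ccnd1* had 9.25 CPM of *Myc*.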
